A study of Mus musculus with 6 samples.

Results

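The transcription factors that T cells switch on or release within minutes of antigen receptor signalling were followed here as 10 genes in bulk RNA-seq of mouse CD8+ T cells, the cytotoxic lymphocytes. They were Nr4a1, Nr4a2 and Nr4a3 (the NR4A orphan nuclear receptors), Egr1, Egr2 and Egr3 (the EGR zinc finger factors), Nfatc1, Nfatc2 and Nfatc3 (calcium-dependent NFAT factors) and the immediate-early gene Ier2. The genes were taken by symbol, as a set chosen with earlier results of these data known, and each is given whatever its values. All 10 were among the 24589 symbols of the table and among the 10866 genes tested.

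Primary wild-type CD8+ T cells, activated with antibodies to CD3 and CD28, were held for 24 h with 20 µM TVA (trans-vaccenic acid, a trans fatty acid of ruminant milk and meat) or with DMSO, the solvent. Each condition had 3 libraries. All cells of both groups had been activated, so the comparison addressed whether TVA shifts these genes within activated cells, not how activation induces them, and no resting cells were measured.

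When the T cell receptor is engaged, calcium entering the cell activates the phosphatase calcineurin, which removes phosphates from NFAT proteins and lets them move into the nucleus. Immediate-early genes such as those of the EGR and NR4A families are transcribed without new protein synthesis, through ready-made factors that include serum response factor, MEF2 and CREB, the factor bound at cAMP response elements. EGR2, EGR3 and NR4A proteins are known to restrain T cell activation, and NR4A factors together with NFAT are linked to the exhausted state of CD8+ T cells. NFAT activity is set largely by phosphorylation and location, and NFAT, EGR and NR4A proteins were not measured here.

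Because CREB binds the short motif TGACG that forms the core of the cAMP response element, the sequence just before the transcription start is shown for the 3 NR4A genes. The windows are the 250 bases before the start in RefSeq on GRCm38.p6, written 5′ to 3′ along the gene, and capitals mark each copy of the motif on either strand. They lie at chr15:101266596-101266845 on the plus strand for Nr4a1, chr2:57124004-57124253 on the minus strand for Nr4a2 and chr4:48045055-48045304 on the plus strand for Nr4a3.
Nr4a1: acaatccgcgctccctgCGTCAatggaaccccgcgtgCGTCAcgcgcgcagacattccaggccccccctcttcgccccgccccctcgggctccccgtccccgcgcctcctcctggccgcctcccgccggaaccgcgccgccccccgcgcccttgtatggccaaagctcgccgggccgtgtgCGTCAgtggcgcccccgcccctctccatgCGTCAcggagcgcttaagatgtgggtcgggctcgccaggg
Nr4a2: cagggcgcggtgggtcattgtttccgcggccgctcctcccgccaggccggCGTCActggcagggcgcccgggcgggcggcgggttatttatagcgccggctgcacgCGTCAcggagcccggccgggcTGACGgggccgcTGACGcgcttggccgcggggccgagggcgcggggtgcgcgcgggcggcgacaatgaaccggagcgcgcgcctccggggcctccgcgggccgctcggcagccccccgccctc
Nr4a3: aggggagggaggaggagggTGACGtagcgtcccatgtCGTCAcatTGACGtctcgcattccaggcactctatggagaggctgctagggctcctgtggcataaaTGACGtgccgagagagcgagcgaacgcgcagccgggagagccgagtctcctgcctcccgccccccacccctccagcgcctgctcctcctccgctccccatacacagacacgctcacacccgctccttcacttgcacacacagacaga

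Each of the 3 NR4A windows held 4 copies of the motif on either strand. Of all 32851 windows of the same length in the RefSeq table, 17.8% held at least 1 copy and 0.137% held at least 4. The copies lay 233, 213, 69 and 40 bases before the start in Nr4a1, 200, 144, 123 and 111 bases before it in Nr4a2, and 231, 213, 205 and 147 bases before it in Nr4a3. The windows were rich in GC, at 74.4% in Nr4a1, 80.0% in Nr4a2 and 63.6% in Nr4a3, and the windows they were set against were not matched for it. The RefSeq start of a window need not be the outermost start of the gene positions given with the values. The full palindrome TGACGTCA, which counts as 2 copies of the short motif, was in none of the windows of these genes and in 1.55% of all windows.

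Windows matched 6 of the 10 genes, some with several starts. Of the 5 windows of Egr2, 4 held a CArG box, the site of serum response factor, which 1.47% of all windows held, and 3 of those 4 also held 2 copies of TGACG. The third, the fourth and the fifth Egr2 windows overlap, so they share matches. The short NFAT core GGAAA was in 55.6% of all windows and is too frequent to single out a gene. It occurred 3 times in the first window of Nfatc2, and the first window of Nfatc3 held 1 copy of it and 1 copy of TGACG. These are matches of letters, and binding was not measured here. Egr1, Egr3, Nfatc1 and Ier2 are named only.

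**Figure D1:**
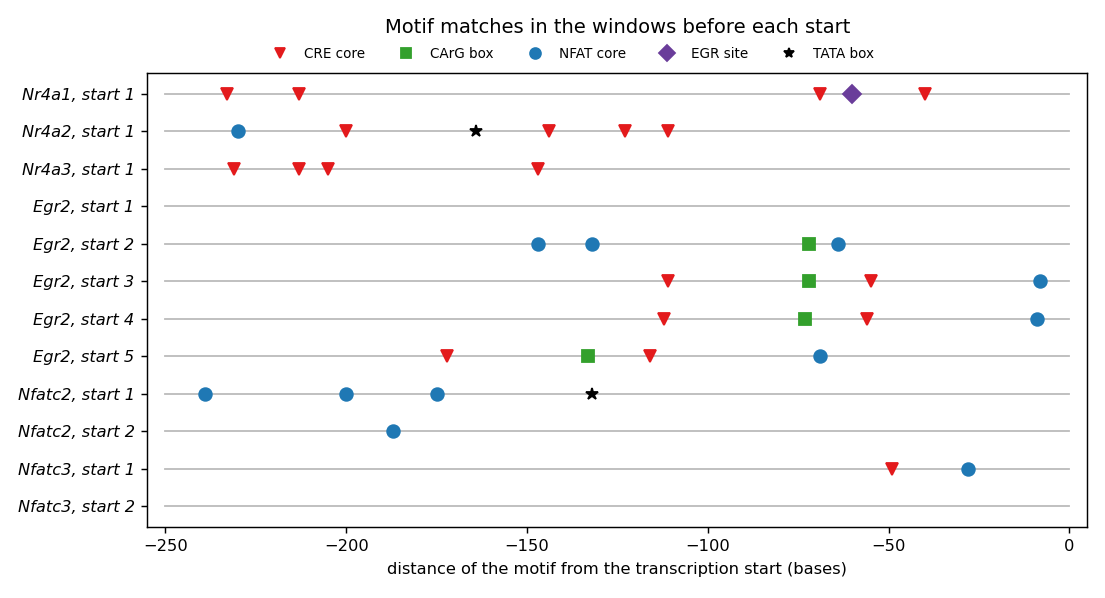
Matches of 5 kinds of motif in the 250 bases before each RefSeq start (12 windows of 6 genes); the horizontal axis is the distance from the start in bases, and each symbol is a match on either strand. The 3 NR4A windows each carry 4 matches of the CRE core TGACG, and 4 of the 5 Egr2 windows carry a CArG box.

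At the transcript level the 10 genes were well expressed in activated cells (TPM is a level scaled to transcript length and to the same total in each library, so that levels can be set side by side between genes). With DMSO, mean TPM was highest for Nr4a1 and fell in the order Ier2, Nr4a3, Egr1, Egr2, Nr4a2, Egr3, Nfatc3, Nfatc1 and Nfatc2, from 228 TPM down to 12.1 TPM. In 4 of the 9 neighbouring pairs of that order the ranges of the 3 libraries overlapped (Nr4a1 with Ier2, Nr4a3 with Egr1, Nr4a2 with Egr3, and Nfatc3 with Nfatc1). With TVA the order differed only in that Nfatc3 stood above Egr3, and the overlapping neighbours were Ier2 with Nr4a3 and Nfatc3 with Egr3. Nr4a1, the most abundant, ranked 604th of all genes by mean TPM, and Nfatc2, the least abundant, 7320th.

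TVA and DMSO were compared with limma on log2(TPM + 1) across all genes tested, with a threshold of 0.05 on the Benjamini-Hochberg adjusted p (95% intervals are given for log2 changes). Of the 10 genes, 2 passed, Nr4a3 as higher and Egr3 as lower with TVA, where 8.51% of all genes tested passed (5.28% higher and 3.23% lower). At an unadjusted p under 0.05 there were 4 (Nr4a3, Egr3, Nfatc2 and Nfatc3), against 31.8% of all genes tested. The groups were free of overlap for the same 4 genes, a share close to the 38.6% of all genes tested. The median log2 change of the 10 genes was -0.02, and that of all genes tested 0.04. The changes in mean TPM, as a percent of the DMSO mean, were small, from -23.6% to 13.0%, and log2 changes of both signs occurred within each family, although those of Nr4a1, Nr4a2, Egr1, Egr2 and Nfatc1 changed sign under some alternatives. In bulk RNA, fewer expressing cells and less RNA in each cell cannot be told apart.

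**Figure D2:**
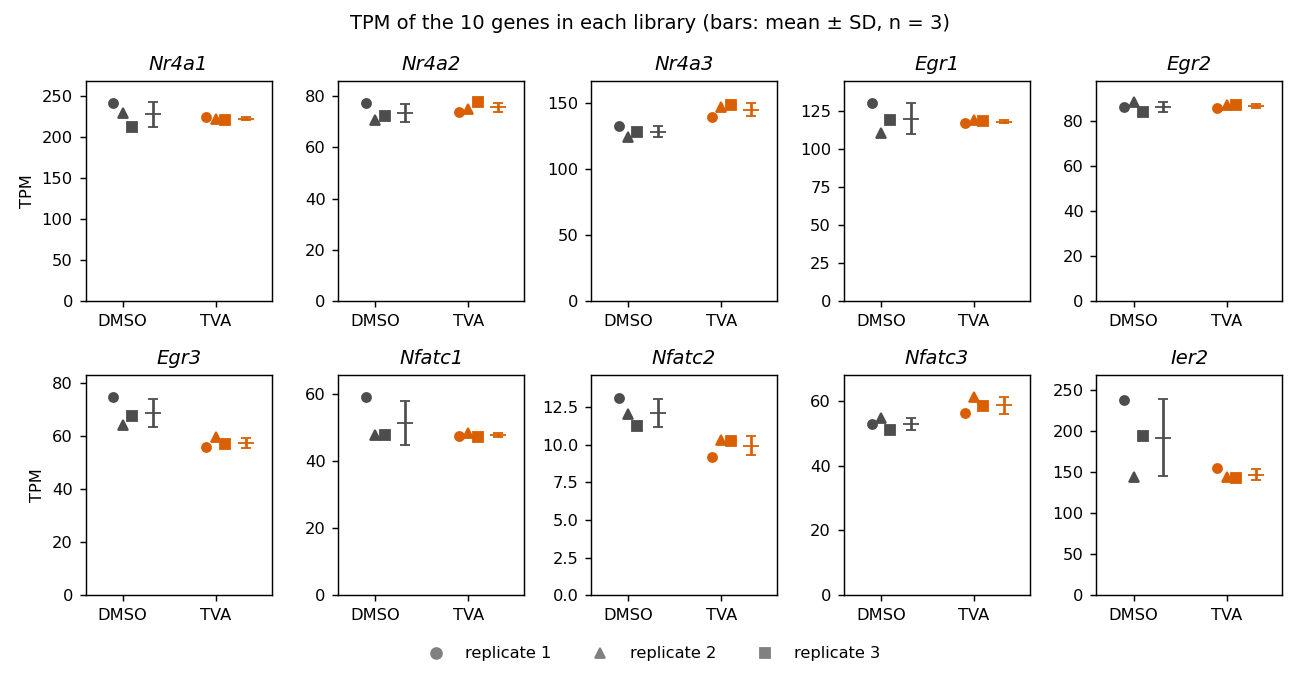
TPM of the 10 genes in each of the 6 libraries (vertical axes start at 0), with circles, triangles and squares for replicates 1, 2 and 3 and bars for the mean ± SD (n = 3). All TVA points lie above all DMSO points for Nr4a3 and Nfatc3 and below them for Egr3 and Nfatc2, and Ier2 is spread from 144 to 238 TPM in the DMSO libraries.

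In the NR4A family, Nr4a3 rose with TVA and the other members did not pass the test. Nr4a3 (also called NOR1) lies at chr4:48045153-48086447 on the plus strand (mm10). The TPM values of DMSO replicates 1, 2 and 3 were 133, 124 and 128, and those of the TVA replicates 139, 147 and 149. Every TVA library was above every DMSO library. The means were 129 ± 4.30 and 145 ± 5.12 TPM (SD, n = 3), a log2 change of 0.17 (SE 0.043, interval 0.075 to 0.27, limma adjusted p 0.0483).

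Nr4a1 (NUR77), widely used as a reporter of T cell receptor signal strength, lies at chr15:101254269-101274795 on the plus strand. It had 242, 229.8 and 212 TPM under DMSO and 224, 223 and 221 TPM under TVA. The TVA values lay inside the DMSO range. The log2 change was -0.03 (SE 0.050, interval -0.15 to 0.087, limma adjusted p 0.704). The test was not passed, which does not show that the levels were equal.

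Nr4a2 (NURR1), at chr2:57106830-57124003 on the minus strand, had 77.4, 70.6 and 72.4 TPM under DMSO and 74.0, 75.1 and 77.7 TPM under TVA. The groups overlapped. Its log2 change was 0.04 (SE 0.046, interval -0.065 to 0.15, limma adjusted p 0.556).

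The 3 NR4A genes summed to 452, 425 and 413 TPM under DMSO and 438, 445 and 448 TPM under TVA, with overlapping groups. Nr4a3 made up 29.3% to 31.1% of that sum with DMSO and 31.9% to 33.2% with TVA, and Nr4a1 51.4% to 54.1% and 49.4% to 51.3%. All 3 promoter windows printed above hold 4 copies of TGACG, and 1 of the 3 genes passed the test.

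The EGR genes encode zinc finger factors, of which EGR1 is an activator induced through serum response factor and EGR2 and EGR3 are feedback regulators linked to anergy. Egr3, at chr14:70077203-70082614 on the plus strand, had 74.5, 64.0 and 67.4 TPM under DMSO and 55.7, 59.5 and 57.1 TPM under TVA. Every TVA library was below every DMSO library. The means were 68.7 ± 5.37 and 57.4 ± 1.92 TPM (SD, n = 3), a log2 change of -0.25 (SE 0.060, interval -0.39 to -0.11, limma adjusted p 0.0450).

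Egr1 had 131, 111 and 119 TPM under DMSO and 117, 119 and 119 TPM under TVA. The TVA values lay within the DMSO range. Its log2 change was -0.02 (SE 0.059, interval -0.16 to 0.12, limma adjusted p 0.839).

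Egr2, at chr10:67535475-67542188 on the plus strand, had 86.2, 88.3 and 83.7 TPM under DMSO and 85.4, 87.0 and 86.9 TPM under TVA. It was the steadiest of the 10 genes among the DMSO libraries, with a coefficient of variation of 2.73%. Its log2 change was 0.0063 (SE 0.037, interval -0.079 to 0.091, limma adjusted p 0.917). Egr3 made up 24.3% to 25.6% of the summed TPM of the 3 EGR genes with DMSO and 21.6% to 22.4% with TVA, while the sum itself ran from 263 to 291 TPM and from 258 to 266 TPM.

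Both calls were close to the threshold and depended on single libraries. Nr4a3 and Egr3 lost their calls when any TVA library was left out (adjusted p 0.094 to 0.19 for Nr4a3 and 0.136 to 0.159 for Egr3) and without DMSO replicate 3 (0.102 and 0.0928), and kept them without DMSO replicate 1 or DMSO replicate 2. Nr4a3 kept its direction, with a log2 change from 0.14 to 0.20 over 16 alternatives, and passed in 7 of them, while Egr3 kept its direction, from -0.30 to -0.19, and passed in 8.

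**Figure D3:**
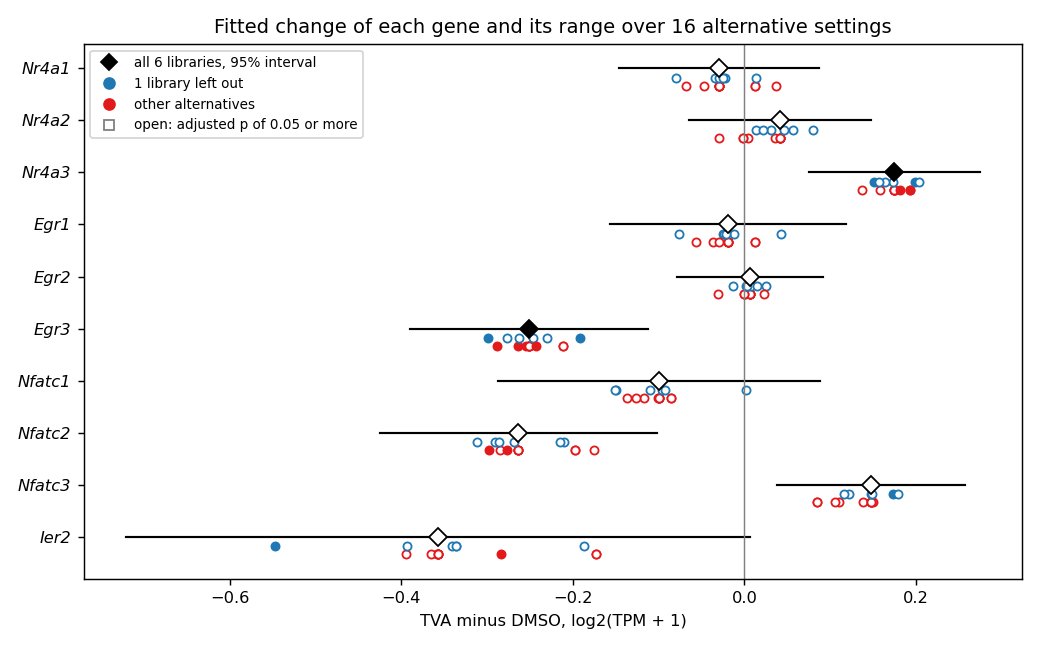
Fitted change of each gene (TVA minus DMSO, log2(TPM + 1)) with its 95% interval (diamonds), and its value under each of 16 alternatives (circles below); filled symbols have an adjusted p under 0.05. Nr4a3 stays to the right of 0 and Egr3, Nfatc2 and Ier2 to the left under each alternative, whereas Nr4a1, Nr4a2, Egr1, Egr2 and Nfatc1 fall on both sides of 0.

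None of the 3 NFAT genes passed the test with limma (2 did at an unadjusted p under 0.05), although Nfatc2 and Nfatc3 had groups that did not overlap and pointed in opposite directions. Nfatc2 (NFAT1), the NFAT protein that is present before stimulation and released at once, lies at chr2:168476410-168601657 on the minus strand. It had 13.1, 12.0 and 11.3 TPM under DMSO and 9.21, 10.3 and 10.3 TPM under TVA. All TVA values were below all DMSO values. The means were 12.1 ± 0.930 and 9.94 ± 0.633 TPM (SD, n = 3), with a log2 change of -0.26 (SE 0.070, interval -0.43 to -0.10, limma adjusted p 0.0563). It passed after median-of-ratios scaling (adjusted p 0.0288) and after quantile normalization (0.0323), and its adjusted p ran up to 0.159 over the alternatives.

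Nfatc3 (NFAT4), also made before stimulation, lies at chr8:106058840-106130537 on the plus strand and shares exonic sequence with Esrp2 on the opposite strand. The use of strand in the counting is not given in the sources used here, so reads of the 2 genes may not have been told apart. It had 52.9, 54.8 and 51.1 TPM under DMSO and 56.2, 61.4 and 58.7 TPM under TVA. All TVA values were above all DMSO values. The log2 change was 0.15 (SE 0.047, interval 0.038 to 0.26, limma adjusted p 0.0859), and the adjusted p ran from 0.0474, without DMSO replicate 2, to 0.284 over the alternatives.

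Nfatc1 (NFAT2), whose short isoform is induced by activation through its own promoter, had 59.0, 47.7 and 47.6 TPM under DMSO and 47.5, 48.4 and 47.2 TPM under TVA. DMSO replicate 1 stood apart, and the other 5 libraries lay between 47.2 and 48.4 TPM. The log2 change was -0.10 (SE 0.081, interval -0.29 to 0.088, limma adjusted p 0.418) and 0.0016 without DMSO replicate 1. The table has 1 value per gene, so isoforms were not distinguished.

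The summed TPM of the 3 NFAT genes was 125, 115 and 109.9 with DMSO and 113, 120 and 116 with TVA. Nfatc3 made up 42.3% to 47.9% of it with DMSO and 49.8% to 51.1% with TVA, and Nfatc2 10.3% to 10.5% and 8.16% to 8.84%. The sum overlapped between the groups, and the shares of Nfatc2 and Nfatc3 did not.

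Ier2, an immediate-early gene that encodes a small nuclear protein, lies in 1 exon at chr8:84661331-84662852 on the minus strand. It had the largest fitted change of the 10 genes and the widest spread. Its TPM was 238, 144 and 193 in the DMSO replicates (1, 2 and 3 in order) and 154, 143 and 142 with TVA. DMSO replicates 1 and 3 were above all TVA libraries, and DMSO replicate 2 was within the TVA range. The means were 192 ± 47.1 and 147 ± 6.68 TPM (SD, n = 3), with a log2 change of -0.36 (SE 0.157, interval -0.72 to 0.0069, limma adjusted p 0.163). The log2 change was -0.19 without DMSO replicate 1 (adjusted p 0.278) and -0.55 without DMSO replicate 2 (adjusted p 0.0057), and over all alternatives the adjusted p ran from 0.0036 to 0.343.

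The placing of DMSO replicate 2 near the TVA libraries was about as common in these genes as in all genes tested. Across all genes, libraries correlated at 0.989 to 0.999 (Pearson, log2(TPM + 1)), and DMSO replicate 2 had a higher correlation with all 3 TVA libraries than with DMSO replicate 1 or 3. It was the DMSO library nearest to the TVA mean for Nr4a1, Egr3, Nfatc1, Nfatc3 and Ier2, 5 of the 10 genes, against 46.6% of all genes tested. DMSO replicate 1 was the highest DMSO library for 8 of the 10 genes (all but Egr2 and Nfatc3), against 49.7% of all genes tested. The relative spread was wider with DMSO than with TVA for 8 of the 10 genes, against 74.4% of all genes tested. Without DMSO replicate 2, 4 of the 10 genes passed (Nr4a3, Egr3, Nfatc3 and Ier2) and 20.6% of all genes. The part of this library in the results above was not tested further.

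The fitted changes of all genes also moved with base composition. Across genes, the log2 change and transcript GC content correlated at -0.40 (Spearman, over genes, which are not independent replicates). The highest GC content of the 10 genes was that of Ier2, at 60.9%, and the lowest that of Nfatc3, at 45.5%, while 8 of the 10 were above the median of 50.4%. After a correction for GC content within each library, Nr4a3 changed by 0.19 (limma adjusted p 0.0233) and Egr3 by -0.21 (adjusted p 0.0222), and both kept their calls. Nfatc2 then changed by -0.20 (adjusted p 0.0626), Nfatc3 by 0.08 (adjusted p 0.183) and Ier2 by -0.17 (adjusted p 0.225).

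Ratios between members of a family, taken within a library, do not depend on any single scaling factor applied to that library. For each of 9 pairs the log2 ratio was compared between the groups by an exact permutation test, two-sided, in which 3 libraries against 3 cannot give a p below 0.10. The ratio did not overlap between the groups for 7 of the 9 pairs, and each of these reached that smallest p of 0.10 (0.129 after Benjamini-Hochberg adjustment over the 9 pairs). Of all pairs of 10856 genes tested and above 0 TPM in every library, 36.1% did not overlap. The pairs were chosen with the changes of single genes known, and ratios that share a gene are not independent.

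The largest shift in ratio was between Nfatc2 and Nfatc3. The ratio of their TPM was 0.248, 0.219 and 0.221 with DMSO and 0.164, 0.168 and 0.175 with TVA, a log2 difference of -0.44 (exact permutation p 0.10, n = 3 per group). Nfatc2 was thus lower against Nfatc3 in each TVA library than in any DMSO library. All TVA values of Nfatc2 were already below all DMSO values, and those of Nfatc3 above. The lack of overlap in the ratio, and its p of 0.10, followed from that and are no further evidence. After the GC correction the difference was -0.28, and the groups still did not overlap.

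In the EGR family, the ratio of Egr1 to Egr3 was 1.75, 1.73 and 1.76 with DMSO and 2.10, 2.00 and 2.08 with TVA, a log2 difference of 0.24 (exact permutation p 0.10, n = 3 per group). The ratio of Egr2 to Egr3 was 1.16, 1.38 and 1.24 and then 1.53, 1.46 and 1.52, a log2 difference of 0.26. Egr3 was lower against both, and the ratio of Egr1 to Egr2 overlapped between the groups (log2 difference -0.03, exact permutation p 0.70, n = 3 per group).

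In the NR4A family, the ratio of Nr4a2 to Nr4a3 was 0.582, 0.567 and 0.564 with DMSO and 0.530, 0.510 and 0.522 with TVA, a log2 difference of -0.13. That of Nr4a1 to Nr4a3 was 1.82, 1.85 and 1.65 and then 1.61, 1.51 and 1.49, a log2 difference of -0.21. Nr4a3 was higher against both other members in all TVA libraries, and the ratio of Nr4a1 to Nr4a2 overlapped (log2 difference -0.07, exact permutation p 0.30, n = 3 per group). After the GC correction 6 of the 9 pairs did not overlap, and the ratio of Nfatc1 to Nfatc2, which had not overlapped before it, did.

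**Figure D4:**
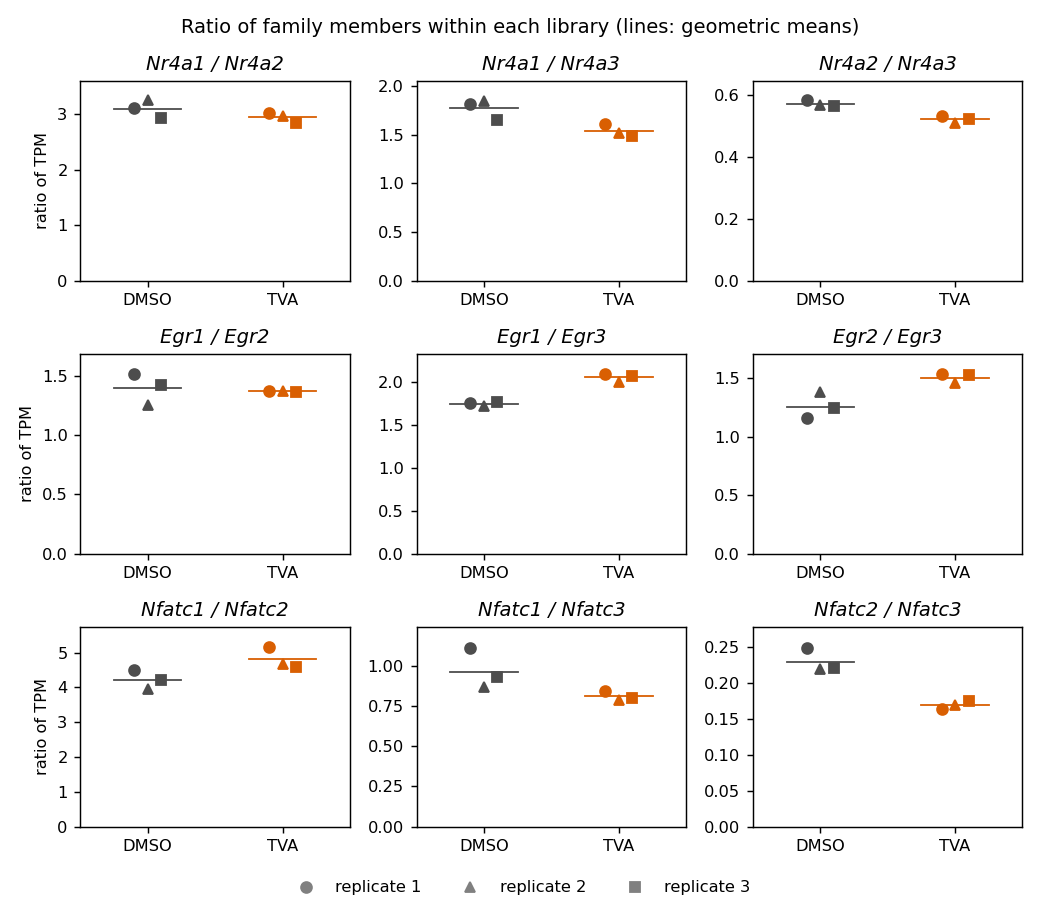
Ratio of the TPM of 2 family members within each library (vertical axes start at 0), with circles, triangles and squares for replicates 1, 2 and 3 and lines for the geometric mean of a group. The ratio does not overlap between DMSO and TVA for 7 of the 9 pairs, and the widest log2 difference, -0.44, is that of Nfatc2 to Nfatc3.

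The pathways around these genes were read from 6 lists, each by its counts and its median, with the 8.51% of all genes tested that passed as the measure to set them against. In the calcineurin and NFAT pathway list, 1 of 30 genes tested passed, as lower, with a median log2 change of 0.02. At an unadjusted p under 0.05 the limma fit gave 6 higher and 2 lower. That gene was Homer3, a scaffold protein that binds NFAT and competes with calcineurin, at 5.49 ± 0.635 TPM under DMSO and 4.11 ± 0.295 TPM under TVA (limma log2 change -0.34, SE 0.085, adjusted p 0.0488). The calcineurin subunit genes did not pass, with log2 changes of 0.16 for Ppp3ca (adjusted p 0.0839), 0.07 for Ppp3cb (0.382) and 0.03 for Ppp3r1 (0.784). Ppp3cc, named after its value was seen, changed by 0.11 (limma adjusted p 0.108). All TVA values of Ppp3ca and Ppp3cc were above all DMSO values. Rcan1, an NFAT target and feedback inhibitor of calcineurin, was at 9.10 TPM under DMSO and 9.07 TPM under TVA (adjusted p 0.982), and Nfat5, the calcineurin-independent relative, had an adjusted p of 0.997.

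Among 21 tested regulators upstream of NR4A and EGR (serum response factor, MEF2, CREB and MAP kinase genes), 0 passed with limma. At an unadjusted p under 0.05 there were 2, among them Map2k1, a MAP kinase kinase gene named after its value was seen, with a log2 change of -0.18. Srf had a log2 change of -0.07 (adjusted p 0.557), and Creb1 of 0.06 (adjusted p 0.350). Without DMSO replicate 2, 2 of the 21 passed, both as lower, and 0 with any other single library left out.

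The EGR cofactor and anergy list held 12 genes tested, of which 2 were higher and 1 lower, with a median of 0.05. With single libraries left out, the count of 3 ran from 1, without TVA replicate 2 or 3, to 5, without DMSO replicate 2. Crtam, a cell adhesion receptor of activated CD8+ T cells, rose from 237 ± 5.04 to 303 ± 6.84 TPM (limma log2 change 0.35, SE 0.036, adjusted p 0.0034), a call that held under each alternative. Tnfrsf9, which encodes the costimulatory receptor 4-1BB, rose from 322 ± 15.0 to 406 ± 5.45 TPM (limma log2 change 0.33, SE 0.043, adjusted p 0.0078). Lag3, an inhibitory receptor gene of the same list, fell by 0.45 on the log2 scale (adjusted p 0.0089). These 3 encode surface receptors known as EGR2 targets in anergic T cells, and 2 of them rose while the other fell. Nab1 and Nab2 encode corepressors that bind EGR proteins, and had log2 changes of 0.08 (adjusted p 0.235) and -0.19 (adjusted p 0.123), with Nab2 below the DMSO range in all TVA libraries. After the GC correction the change of Nab2 was -0.09 (limma adjusted p 0.0928).

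Other immediate-early genes had a negative median change. Of 35 tested, 6 were lower and 1 higher, 27 had a negative and 8 a positive log2 change, and the median was -0.14. Maff, a small MAF transcription factor, fell from 11.2 ± 0.620 to 7.34 ± 0.0611 TPM (limma log2 change -0.55, adjusted p 0.0031), and Ier3, an early response gene that affects cell survival, from 51.9 ± 4.51 to 38.0 ± 1.21 TPM (log2 change -0.44, adjusted p 0.0130). Dusp1, a phosphatase of MAP kinases, fell by 0.41 on the log2 scale (adjusted p 0.0405), Csrnp1 by 0.33 (0.0222), Nfkbia, the NF-kB inhibitor, by 0.30 (0.0362) and Atf3 by 0.26 (0.0121). Plk2, named after its value was seen, was the only higher one, at 70.1 ± 1.08 and 77.6 ± 1.00 TPM (log2 change 0.14, adjusted p 0.0461), while after median-of-ratios scaling 9 were lower and 0 higher. The count of 7 was 17 without DMSO replicate 2, 4 without DMSO replicate 3 and 1 without each TVA library in turn, and the call of Maff held under each alternative that tested it.

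The spread of Ier2 among the DMSO libraries was shared by other immediate-early genes, which are named here after their values were seen. Jund, an AP-1 subunit gene, had 238, 61.7 and 165 TPM under DMSO and 49.4, 48.0 and 45.4 TPM under TVA, Junb 426, 199 and 346 TPM and then 186, 170.4 and 169.5 TPM, and Jun 65.4, 39.2 and 55.7 TPM and then 37.6, 36.1 and 34.2 TPM. In each, DMSO replicate 2 was close to the TVA libraries but, unlike in Ier2, above all of them. DMSO replicates 1 and 3 were far above them. None passed (limma adjusted p 0.064 for Jund, 0.071 for Junb and 0.075 for Jun, unadjusted p 0.0081, 0.0102 and 0.0115). Fos, with 10.6, 9.93 and 9.24 TPM and then 9.33, 9.72 and 10.7 TPM, did not share the pattern (adjusted p 0.982). Transcript GC content was 67.1% for Jund, 62.7% for Junb, 55.5% for Jun and 55.9% for Fos, against 60.9% for Ier2. The part of GC content in this spread was not tested. Egr4, the fourth EGR gene (GC content 68.2%), had 6.43, 1.39 and 4.85 TPM under DMSO and 1.46, 1.32 and 1.07 TPM under TVA (adjusted p 0.105). That is the pattern of Ier2 and not of Egr1 or Egr2. Egr3 also had DMSO replicate 1 highest and DMSO replicate 2 nearest to the TVA mean. Its coefficient of variation among the DMSO libraries was narrower, at 7.82% against 24.5% for Ier2.

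Cytokine and receptor genes that depend on NFAT were lower in 5 of 15 tested and higher in 0 with limma (3 higher and 6 lower at an unadjusted p under 0.05), with a median of 0.06. Il2, the classical target of NFAT with AP-1, fell from 505 ± 10.2 to 360.2 ± 2.63 TPM (limma log2 change -0.49, adjusted p 7.2e-04). Il13 (log2 change -1.03, adjusted p 5.0e-04), Il4 (-0.57, 0.0158), Cd40lg (-0.33, 0.0301) and Il3 (-0.31, 0.0274) also fell. Ifng and Tnf, named after their values were seen, with log2 changes of 0.06 (adjusted p 0.330) and 0.10 (adjusted p 0.202), did not pass. The 10 that did not pass included 9 with a positive change, and the 5 that passed were all lower. The count of 5 ranged from 2 to 8 as single libraries were omitted, with 8 when DMSO replicate 2 was the one omitted. Il2 and Il13 kept their calls under each alternative in which they were tested.

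In the list of NR4A partners and exhaustion genes, 7 genes were tested, of which 3 were lower and 0 higher with limma (the same counts at an unadjusted p under 0.05), with a median of -0.06. Havcr2, which encodes the inhibitory receptor TIM-3, fell from 5.24 to 2.69 TPM (log2 change -0.76, adjusted p 0.0046), and Rxra, the retinoid X receptor that pairs with Nr4a1 and Nr4a2 proteins, from 6.73 to 4.79 TPM (-0.42, adjusted p 0.0106). Lag3, counted in the EGR list as well, was the third. Tox, which encodes a driver of exhaustion, had 11.3 TPM under DMSO and 11.1 TPM under TVA (log2 change -0.03, adjusted p 0.752). The exhaustion list and Lag3, Tox and Il2 follow genes that the study examined, so their directions are not independent evidence. The paper reports less TOX in CD8+ T cells from tumours of mice fed TVA, and more IL-2 with TVA. Those are protein measures, TOX in other cells than these, and Il2 RNA here fell.

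**Figure D5:**
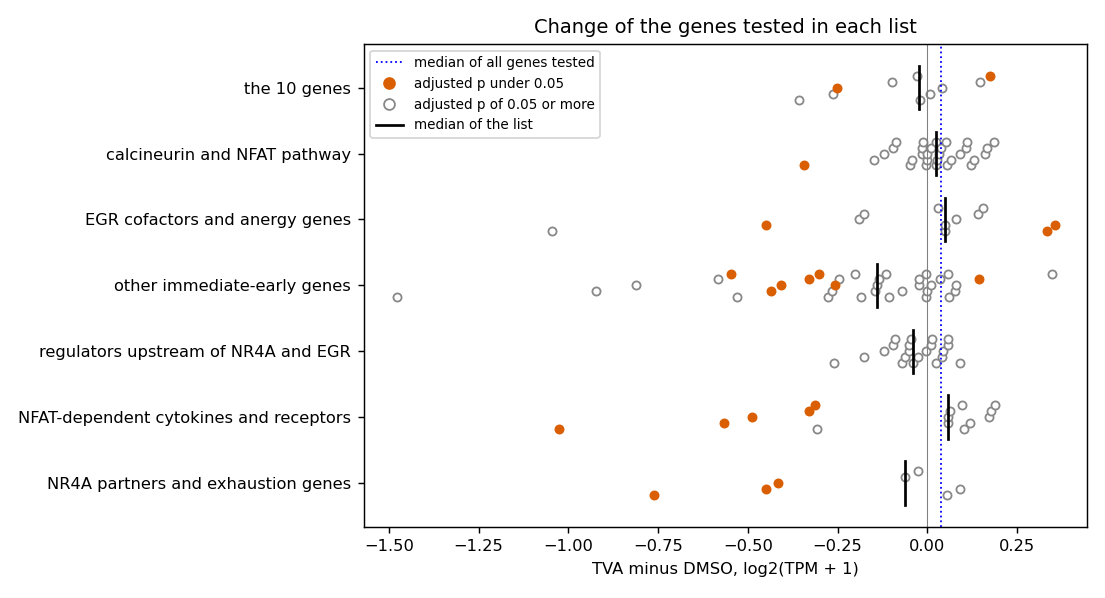
Log2 change (TVA minus DMSO, log2(TPM + 1)) of each gene tested in the 10 genes and in 6 lists of related genes; filled points have an adjusted p under 0.05, black bars mark list medians and the dotted line marks the median of all genes tested, 0.04. The other immediate-early genes have the lowest median, -0.14, and the 5 NFAT-dependent genes that passed all lie below 0.

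Markers of the labelled cell type were high, at 1516 to 1638 TPM summed over Cd3d, Cd3e, Cd3g, Cd8a and Cd8b1 with DMSO and 1756 to 1787 TPM under TVA, and 1 of the 5 passed, Cd3g, as higher. Markers of B cells summed to 10.7 to 14.9 TPM and those of CD4+ T cells to 8.72 to 11.6 TPM over all libraries, and 0 of either list passed with limma (1 did at an unadjusted p under 0.05, Cd4). The NK cell markers Ncr1 and Klrb1c did not exceed 0.43 TPM, and Eomes, which CD8+ T cells also express, was higher with TVA. Of 7 myeloid markers, 5 were tested and 1, Lyz2, passed as higher. At an unadjusted p under 0.05 with limma, Csf1r, Itgam and Cd14 were higher as well, and Cd68 was not. The myeloid sum was 41.5 to 45.2 TPM under DMSO and 55.0 to 56.5 TPM under TVA, and its part in the changes of the 10 genes was not tested. Of 4 haemoglobin genes of red cells, 1 was lower, and their sum overlapped between the groups.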

How the data were processed

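RNA-seq measured transcript levels in 6 libraries of activated mouse CD8+ T cells, 3 with DMSO and 3 with 20 µM TVA. The labels name the SMARTER mRNA-Seq kit for library construction, and the submitters' processing notes name STAR, RSEM and mm10. The authors deposited TPM per gene symbol, with no counts, and the annotation and use of strand are not given in the sources used here. TPM keeps no trace of depth, so the depth of each library is unknown and no counting interval is given. Groups and replicate numbers came from the sample titles. Nothing says whether replicates came from separate cultures or animals, so p-values measure only the spread between these samples, which may be technical.

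Genes with at least 1 TPM in at least 3 libraries were tested on log2(TPM + 1), which understates the change of low genes, with limma 3.58.1 in R 4.3.3 (moderated variance with a trend, two-sided, Benjamini-Hochberg adjustment over all 10866 genes, threshold 0.05, no replicate block). The fit was tested on simulated data. The genes named by a fixed rule were all 10 members and, from each list, the genes past the threshold (at most the 6 of largest change). The rule also took Nab1, Nab2, Rcan1, Ppp3ca, Ppp3cb, Ppp3r1, Srf, Creb1, Il2, Tox and Nfat5. Members and lists were chosen with earlier results of these data known, and the family ratios and the joint alternative of GC correction without DMSO replicate 2 were chosen after seeing the data. The GC correction subtracted within each library the loess fit (span 0.5) of deviations from gene means on transcript GC content, available for 97.4% of the genes tested. The other alternatives were a pseudocount of 0.1, other filters on TPM, median-of-ratios and quantile scaling, no variance trend, a replicate block and each library left out. Positions and GC content came from GENCODE vM21 on mm10, and promoter windows from RefSeq on GRCm38.p6, searched on both strands. Figures were drawn with matplotlib 3.10.9. Other genes of the lists enter the text through counts and medians, and 1 gene that would have been named is not reported here.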

Additional observations from a re-analysis of the deposited data

How the results depend on the processing

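The count of 2 genes past the threshold among the 10 was 0 with all genes above 0 TPM (494 of 16749 genes called in all) and 0 when the variance trend was omitted, and it ran from 0 to 4 over the fits that each omitted 1 library. With a library left out, the count over all genes ran from 102 (without TVA replicate 2) to 2242 (without DMSO replicate 2), with 294 without DMSO replicate 3, and the count of 18 over the pathway lists from 5 to 39. Restricting the test to a mean of at least 10 TPM gave 608 of 7563 genes. GC correction without DMSO replicate 2 gave 2812 genes, 3 of the 10 and 45 over the lists. Fewer libraries or more genes tested enter some of these by construction, and otherwise the cause was not tested. Deviations from the group mean correlated at 0.16, 0.03 and -0.08 between libraries of the same number, which therefore share only a number. With the replicate block 218 genes, 0 of the 10 and 11 over the lists were called, and with the replicate block and GC correction 550 genes and 1 of the 10 (Nr4a3). Median-of-ratios scaling moved the median of all genes from 0.04 to 0.0043 and the share of higher calls from 62.1% to 35.4%, against 46.1% after quantile normalization. It left Nr4a3 at 0.14 (adjusted p 0.0709) and quantile normalization at 0.16 (0.0536). Homer3 lost its call with each library but DMSO replicate 2 left out, with all genes above 0 TPM and under the block, with or without GC correction. The calls of Lag3, Ier3, Csrnp1, Atf3, Dusp1, Nfkbia and Cd40lg were lost without each TVA library in turn, and those of Tnfrsf9, Rxra, Il4 and Il3 without TVA replicate 2 or 3. Dusp1, Nfkbia, Cd40lg and Il3 also lost theirs with all genes above 0 TPM, these 4 and Il4 under the block and without DMSO replicate 3, and Rxra under the block with GC correction. The 7 family ratios without overlap kept their sign under the GC correction and with each library left out.

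Changes of sign were all in values short of the threshold. Median-of-ratios scaling gave -0.031 for Egr2 and -0.012 for Ppp3r1. GC correction, with or without the block, gave 0.012 for Nr4a1, -0.0019 for Nr4a2, 0.013 for Egr1, -1.2e-04 for Egr2, -0.034 for Ppp3cb, -0.068 for Ppp3r1, 0.053 for Srf and -0.0065 for Creb1. GC correction without DMSO replicate 2 gave 0.037 for Nr4a1, -0.030 for Nr4a2, -0.053 for Ppp3cb, -0.103 for Ppp3r1, 0.032 for Srf and -0.013 for Creb1. With 1 library left out, values ran from -0.080 to 0.013 for Nr4a1, -0.076 to 0.043 for Egr1, -0.014 to 0.025 for Egr2, -0.15 to 0.0016 for Nfatc1, -0.047 to 0.062 for Rcan1, -0.014 to 0.089 for Ppp3r1, -0.15 to 0.021 for Srf and -0.010 to 0.015 for Nfat5. The positive end came without DMSO replicate 1 for Nr4a1, Egr1, Nfatc1, Rcan1 and Srf. The cause was not tested. Of 160 values of the 10 genes under alternatives, 123 kept direction and side of the threshold, 17 lost a call, 5 gained one and 15 changed sign. What depth limits cannot be stated, since depth is unknown.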
